A study of Homo sapiens with 33 samples.

Results

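The genes followed here were 54 listed transcription factors of embryonic development that lie outside the HOX clusters, of the SRY-box, paired-box, GATA, T-box, NK homeobox, forkhead, other homeobox, basic helix-loop-helix, SNAI and RUNX families. Each was represented by its brightest probe set, a group of short probes for a transcript, by the mean over all 33 arrays. Of the 54, 52 were measured among 19775 genes in all; FOXC1 and NEUROD1 were not analysed here. The factors were split at a mean level of 5 on the log2 scale over the 15 DMSO arrays, and EED226 was compared with DMSO at each time.

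The cells were Karpas422, an established line of human diffuse large B cell lymphoma that the study's title gives as EZH2 mutant, so every group carried that genotype. They received 5 µM EED226, an allosteric inhibitor that binds the EED subunit of Polycomb repressive complex PRC2, or its solvent DMSO, for 8 h or for 1, 2, 3 or 6 days. With a further group at 0 h, whose treatment the labels do not give, this made 11 groups of 3 Affymetrix arrays. A single line was used, and the labels call its replicates biological triplicates.

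PRC2 places methyl groups on lysine 27 of histone H3. EZH2 or EZH1 is the catalytic subunit, and EED binds the trimethylated mark and stimulates the enzyme. In many cell types the CpG-rich promoters of developmental regulators carry this mark while the genes are silent, and these factors specify tissues such as the neural crest, cartilage, limb, heart and kidney. Most of them are not known for a role in mature B cells.

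For the factors that rose and that have an entry in the RefSeq promoter table (GRCh38.p14), the 250 bases before the transcript start are shown, because CpG-rich promoters are common sites of PRC2. Capitals mark CpG dinucleotides, and each line runs 5′ to 3′ on the gene's strand. The MEIS1 window is chr2:66434875-66435124 on the plus strand, DLX2 is chr2:172102901-172103150 on the minus strand, MSX1 is chr4:4859415-4859664 on the plus strand and PITX1 is chr5:135034229-135034478 on the minus strand. SOX9, SNAI2 and TBX15 have no entry.
MEIS1: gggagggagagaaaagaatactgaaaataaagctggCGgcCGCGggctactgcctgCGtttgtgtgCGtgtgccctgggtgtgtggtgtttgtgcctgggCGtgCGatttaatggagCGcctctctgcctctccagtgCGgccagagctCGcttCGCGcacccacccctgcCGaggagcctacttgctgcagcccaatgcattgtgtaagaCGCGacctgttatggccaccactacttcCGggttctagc
DLX2: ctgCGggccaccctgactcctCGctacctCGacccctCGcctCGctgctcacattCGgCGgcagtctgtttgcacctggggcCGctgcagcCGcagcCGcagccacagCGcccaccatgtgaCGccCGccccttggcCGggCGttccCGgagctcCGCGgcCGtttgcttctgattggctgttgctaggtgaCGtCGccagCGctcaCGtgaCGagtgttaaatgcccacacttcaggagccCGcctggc
MSX1: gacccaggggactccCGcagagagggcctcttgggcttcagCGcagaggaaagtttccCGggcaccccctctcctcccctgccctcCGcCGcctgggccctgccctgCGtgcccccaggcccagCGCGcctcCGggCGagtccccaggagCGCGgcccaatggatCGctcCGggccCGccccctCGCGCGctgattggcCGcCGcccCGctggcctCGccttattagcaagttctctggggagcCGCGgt
PITX1: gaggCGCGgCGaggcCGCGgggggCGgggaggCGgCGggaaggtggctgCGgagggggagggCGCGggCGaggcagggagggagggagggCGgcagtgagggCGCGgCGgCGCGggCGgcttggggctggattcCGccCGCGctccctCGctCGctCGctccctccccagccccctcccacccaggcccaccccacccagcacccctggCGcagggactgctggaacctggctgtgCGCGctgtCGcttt

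These windows held 16 CpG dinucleotides for MEIS1, 25 for DLX2, 24 for MSX1 and 29 for PITX1. The median over all 35116 windows of that length was 11, and 41.0%, 21.6%, 23.7% and 14.1% of them held at least as many as MEIS1, DLX2, MSX1 and PITX1. The other 54 windows of the factors held a median of 16, between 0 and 45, so the promoters shown lie within the range of factors that did not rise. In all, 58 windows matched 35 of the factors. GGGCGG, the GC box, was searched on both strands; it was in the DLX2, MSX1 and PITX1 windows, in 29 of the 58 and in 42.6% of all windows. The CCAAT box was in those of MEIS1, DLX2 and MSX1, in 25 of the 58 and in 32.0% of all windows. TATAAA was in none of the 4, in 2 of the 58 and in 10.7% of all. None of the 3 motifs contains another, and a match describes the letters only.

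Array medians lay between 4.06 and 4.18, and replicate arrays had correlations of at least 0.994 across probe sets, except DMSO day 6 replicate 3 (r = 0.987 and 0.986 to its group). It is named below where a factor or a gene named by rule lost its call without it. Day 6 counts of the other lists, of probe sets and of all genes were not rerun without this array. No arrays were identical. Upper quartiles were less even than medians. They were 6.68 to 6.74 with EED226 and 6.10 to 6.55 with DMSO at day 6, and at most 6.62 in the other groups. The part of this shift in the day 6 differences of bright factors was not tested. The cells carried B cell markers throughout: all 9 measured of 10 were above 5 in every group, with a summed log2 level of 13.90 to 14.13 with DMSO and 14.30 to 14.43 with EED226 at day 6. Summed levels of other lists also moved at day 6. Endothelial markers went from 6.93 to 7.43 with DMSO to 9.35 to 9.87 with EED226, which followed PECAM1 (mean 5.34 and 9.50), while CDH5 (2.72 and 2.54) and KDR (2.82 and 2.62) remained low. Fibroblast markers went from 12.64 to 12.71 up to 13.18 to 13.26, following DCN (12.63 and 13.21), while COL1A1 was 6.56 and 5.76. Myeloid markers were 6.42 to 6.53 and 6.70 to 6.88, T and NK cell markers 10.71 to 10.94 and 10.33 to 10.46, epithelial markers 7.31 to 7.48 and 7.16 to 7.25, and neural markers 11.37 to 11.64 and 10.17 to 10.35. The sums follow their brightest genes. By the limma test (adjusted p under 0.05), 1 of 9 myeloid markers rose and 4 fell at day 6. Of 8 endothelial markers 1 rose and 4 fell, and of 9 fibroblast markers 1 rose and 3 fell. Of 13 T and NK cell markers 1 rose and 5 fell, and of 9 B cell markers 4 rose and 1 fell. None of the 8 epithelial markers passed. Of 8 neural markers 3 rose and 2 fell, where 23.7% of all genes rose and 27.3% fell. The part of these lists in the changes below was not tested. In such bulk RNA, fewer cells of a type and less RNA per cell cannot be told apart.

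Most of these factors gave low signals in the lymphoma cells. With DMSO, 42 of the 52 had a mean below 5 (2.05 to 4.75, median 3.34), 31 of them below the lowest array median of 4.06, and 40 of the 42 did not reach 5 on any of the 33 arrays. The dimmest was EMX2, a homeobox factor of the forebrain, at 2.05. Just below the split were SIX2 at 4.49, PAX3 at 4.52 and GATA2 at 4.75. The 10 factors at 5 or above were SOX10 (5.02), MEIS1 (5.09), DLX2 (5.88), NKX2-5 (5.93), MSX1 (6.57), PAX8 (6.64), SOX9 (7.97), PITX1 (9.41), SNAI2 (9.54) and MEIS2 (10.10). Probe sets differ in how strongly they bind, so these levels order signals and not amounts of transcript. By the 3 arrays at 0 h, 44 factors lay below 5 and 8 above, with MEIS1 (4.79) and SOX10 moving below the split. These arrays enter no EED226 minus DMSO difference, but they do enter the choice of probe set and the pooled spread of the fit.

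In DMSO alone no change of a factor passed the test. Between 0 h and day 6 of DMSO, 0 of the 52 passed the limma test (adjusted p under 0.05 over all genes; 1.72% of all genes passed), and 5 had an unadjusted p under 0.05. The differences ranged from -0.40 for PITX1 to 0.32.

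With EED226 a small set of factors rose, and nearly all of the rises were in factors with a DMSO signal of 5 or more. At 8 h, 0 factors passed in either direction (0.0% of all genes), 1 had an unadjusted p under 0.05, and the count was 0 in every alternative run. At day 1, 3 of 52 rose (5.77%, against 0.834% of all genes) and 0 fell (0.0354% of all genes). At day 2, 5 rose (9.62%, against 6.76%) and 0 fell (2.68% of all genes). At day 3, 6 rose (11.5%, against 11.7%) and 1 fell (11.2% of all genes). At day 6, 6 rose (11.5%, against 23.7%) and 11 fell (21.2%, against 27.3%). The share of factors that rose was thus above that of all genes at day 1 and below it at day 6. The day 1 count was 1 without DMSO day 1 replicate 1 or without EED226 day 1 replicate 3. The factors were chosen with earlier results of these data known, so the shares only describe them.

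Split by signal, the 10 factors at 5 or above gave 3 rises at day 1 (1.23% of genes at that level rose), 5 at day 2 (9.97%), 6 at day 3 (17.1%) and 5 at day 6 (36.8%). In the same 10, 1 fell at day 3 (21.2% of such genes) and 1 at day 6 (34.8%). The 42 factors below 5 gave 0 rises at day 1 (0.435% of dim genes rose), 0 at day 2 (3.54%) and 0 at day 3 (6.35%), and 1 at day 6 (10.5%). At day 6, 10 of the 42 fell (23.8%, against 19.7% of dim genes). Splitting at 5 by the 0 h arrays placed MEIS1 among the dim factors, which then gave 1 rise at each of days 1, 2 and 3 and 2 at day 6, of 44. With the split at 6 by the DMSO arrays, the 46 factors below it gave 1, 2, 2 and 2 rises at days 1, 2, 3 and 6. They then held all 11 falls of day 6. With the split at 4, the 31 factors below it gave 0 rises through day 3 and 1 at day 6, and the day 6 falls were 6 of 31 below and 5 of 21 above. The bar plot of these shares shows the rises of the brighter factors from day 1 and the near absence of rises among dim ones.

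**Figure D1:**
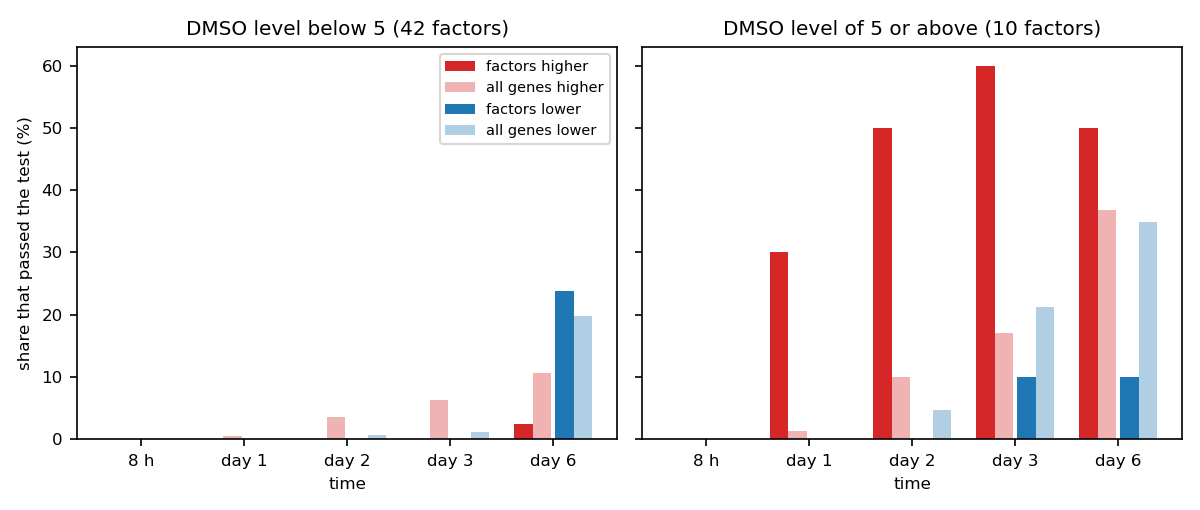
Share of developmental factors (dark bars) and of all genes (light bars) that passed the limma test at each time, in percent, for a mean DMSO level below 5 (42 factors, left) and of 5 or above (10 factors, right); red is higher and blue lower with EED226. Among the 10 brighter factors 3, 5, 6 and 5 rose at days 1, 2, 3 and 6, while 1 of the 42 dim factors rose, at day 6.

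**Figure D2:**
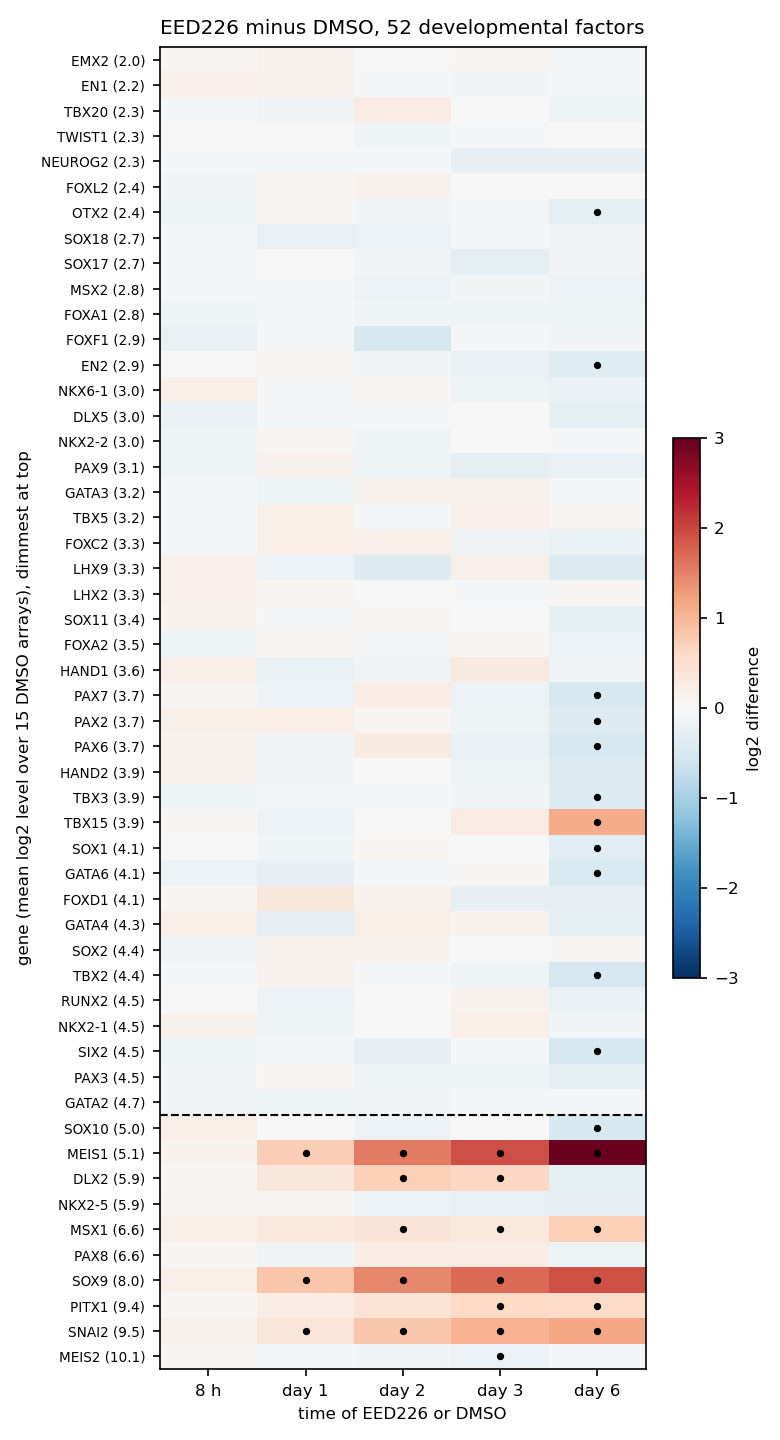
EED226 minus DMSO on the log2 scale (colour) for the 52 factors at 5 times, ordered by mean DMSO level with the dimmest at the top; dots mark adjusted p under 0.05 and the dashed line the level of 5. The rises lie in the rows of MEIS1, SOX9, SNAI2, DLX2, MSX1 and PITX1 below the line, and in TBX15 at day 6 above it.

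SOX9, the HMG-box factor of cartilage formation and testis determination, was among the 3 factors that had passed as higher by day 1. On the 3 DMSO arrays of day 1 it lay between 7.99 and 8.02, and on the EED226 arrays at 8.81, 8.92 and 8.77. Later EED226 arrays read 9.37, 9.48 and 9.39 at day 2, 9.78, 9.66 and 9.82 at day 3, and 9.88, 9.70 and 9.82 at day 6, while DMSO at day 6 read 8.05, 8.08 and 7.57. The EED226 arrays lay above the DMSO arrays of their own time at each time, 8 h included. The difference was 0.21 at 8 h, the highest of any factor there and not past the test. It was then 0.83 ± 0.09 (SE, n = 3) at day 1 (adjusted p = 8.12e-06), 1.45 at day 2, 1.70 at day 3 and 1.90 ± 0.09 at day 6, a 3.74-fold rise (adjusted p = 6.50e-16). It passed with each array left out in turn.

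MEIS1, a homeobox factor of the TALE class that binds DNA with HOX and PBX proteins and acts in blood stem cells, had the largest rise. DMSO arrays read 4.86, 4.82 and 5.15 at day 1 and 5.23, 5.37 and 4.72 at day 6. EED226 arrays read 5.77, 5.58 and 5.69 at day 1, 6.74, 6.62 and 6.79 at day 2, 7.41, 7.15 and 7.34 at day 3, and 7.95, 8.43 and 7.82 at day 6. The groups did not overlap from day 1 on, and the treated level was still climbing at the last time. The difference was 0.74 ± 0.16 at day 1 (adjusted p = 0.0188), 1.56 at day 2, 1.94 at day 3 and 2.96 ± 0.16 at day 6, 7.78-fold (adjusted p = 8.30e-15). It gained a further 1.02 ± 0.22 between day 3 and day 6 (adjusted p = 0.00109). The day 1 call was lost on leaving out a single array: DMSO day 1 replicate 1 (adjusted p = 0.0951), its replicate 2 (0.0986), EED226 day 1 replicate 1 (0.123) or its replicate 3 (0.0532). The difference was then 0.68 to 0.74 (0.63 and adjusted p = 0.0775 with the mean of its probe sets), and the later calls were kept in each omission.

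SNAI2, a zinc-finger repressor of the neural crest and of epithelial-mesenchymal transition, was already bright and rose with a small spread. The DMSO arrays were at 9.48, 9.54 and 9.64 at day 1 and 9.65, 9.56 and 9.64 at day 6. With EED226 they were at 9.85, 9.86 and 10.05 at day 1, 10.34, 10.40 and 10.45 at day 2, 10.67, 10.45 and 10.65 at day 3, and 10.70, 10.79 and 10.84 at day 6. Treated and control arrays were apart at each of these times. The difference was 0.37 ± 0.07 at day 1 (adjusted p = 0.00633), 0.82 at day 2, 1.04 at day 3 and 1.16 ± 0.07 at day 6, 2.24-fold (adjusted p = 9.30e-14). Without DMSO day 1 replicate 1 or EED226 day 1 replicate 3 the day 1 difference of 0.33 or 0.30 did not pass (adjusted p = 0.0575 and 0.0532), which left SOX9 as the 1 factor called at day 1, nor did it in a fit of those 6 arrays only (0.155).

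**Figure D3:**
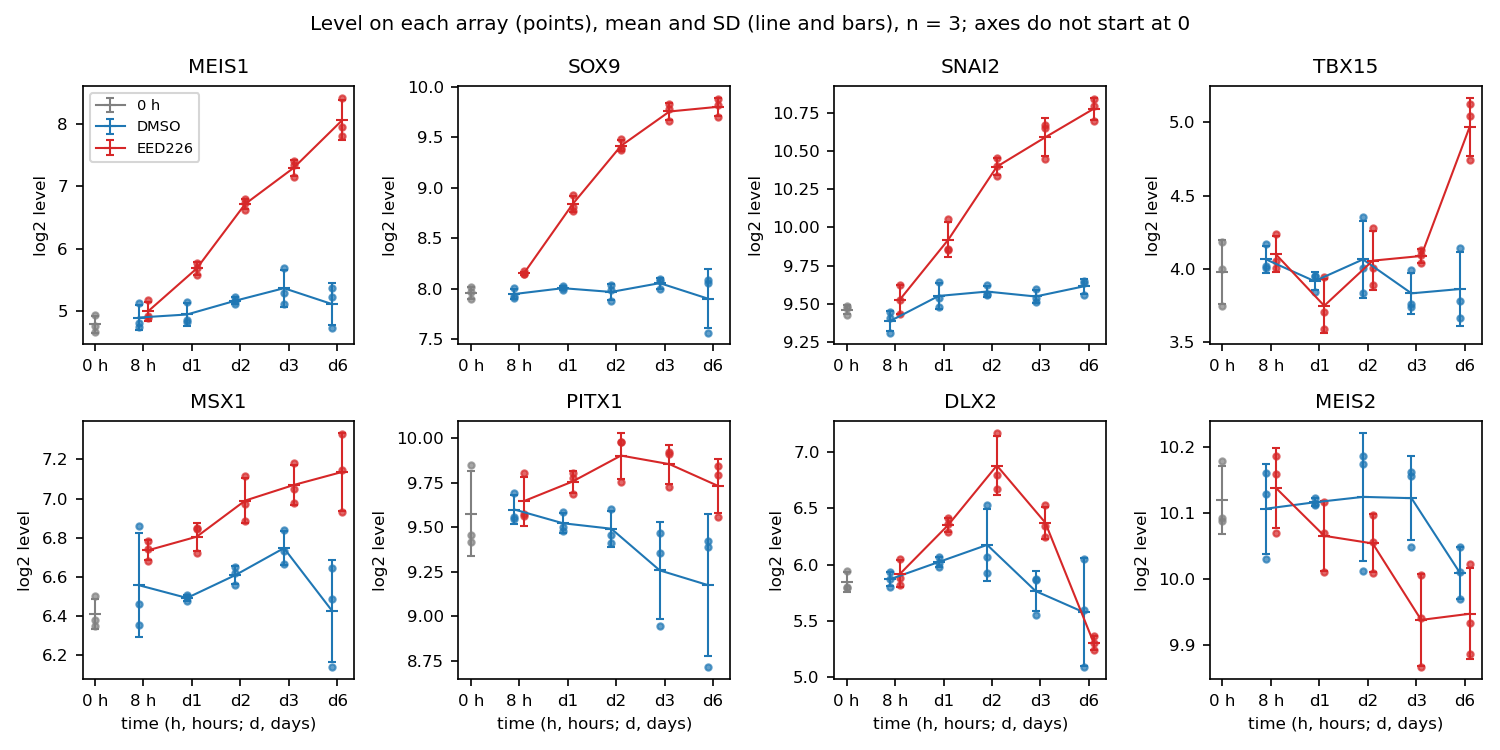
Log2 level on every array (points) with the mean and SD of 3 arrays (line and bars) at 0 h and over 8 h to 6 days, DMSO in blue and EED226 in red, for 8 factors; the axes do not start at 0. SOX9, MEIS1 and SNAI2 passed the test from day 1, DLX2 at days 2 and 3, and TBX15 at day 6; at day 1 the DLX2 groups, and at day 3 the TBX15 groups, did not overlap but did not pass.

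MSX1, a homeobox repressor of tooth and craniofacial development, rose less. At day 6 the DMSO arrays read 6.49, 6.65 and 6.14 and the EED226 arrays 7.15, 6.93 and 7.33, with no overlap. The difference was 0.71 ± 0.11, 1.64-fold (adjusted p = 6.86e-06), and this call was kept with each array left out. At days 2 and 3 it was 0.38 ± 0.11 (adjusted p = 0.0338) and 0.32 (adjusted p = 0.0425), near the threshold. The day 2 call was lost on omitting any 1 of its DMSO replicates 1, 2 and 3 (adjusted p = 0.12, 0.0638 and 0.0842) and either of EED226 replicates 2 and 3 (0.175 and 0.0785). For day 3 the arrays that ended the call were DMSO replicates 1 and 2 (0.152 and 0.0994) and EED226 replicates 1 and 3 (0.174 and 0.0822). With the mean of its probe sets the differences at both days were 0.16 and did not pass.

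PITX1, the factor of hindlimb and pituitary development, was bright in these cells and lay above DMSO by day 3. Its mean at 0 h was 9.58, and DMSO at day 6 differed from 0 h by -0.40, which did not pass. The lowest DMSO array of day 6 was replicate 3 (8.71), and the EED226 arrays of that day lay on both sides of the 0 h mean. The part of the lower DMSO reading in the day 6 difference was not tested. DMSO arrays at day 3 read 9.47, 9.36 and 8.95 and EED226 arrays 9.92, 9.91 and 9.73. At day 6 they read 9.39, 9.42 and 8.71 against 9.56, 9.84 and 9.79. The groups were apart at both times, although the lowest DMSO value each time was replicate 3. With the replicate number as a block, PITX1 joined the rises of day 2 and made them 6. That block is a term shared by all 11 groups and does not pair arrays within a day. The difference was 0.41 at day 2 without the block (adjusted p = 0.0800), 0.60 ± 0.15 at day 3 (adjusted p = 0.00289) and 0.56 ± 0.15 at day 6, 1.47-fold (adjusted p = 0.00223, and 0.0638 in a fit of those 6 arrays only). Without DMSO day 6 replicate 3 the day 6 difference was 0.33 (adjusted p = 0.0424).

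DLX2, a homeobox factor of forebrain interneurons and the jaw, was the 1 factor that passed as higher at earlier times and not at day 6. At day 1 the EED226 arrays (6.36, 6.41 and 6.29) already lay above those of DMSO (6.07, 6.02 and 5.98), a difference of 0.33 that did not pass (adjusted p = 0.717). DMSO arrays read 6.07, 6.53 and 5.92 at day 2 and 5.87, 5.86 and 5.55 at day 3. EED226 arrays read 6.67, 7.18 and 6.80 at day 2 and 6.25, 6.53 and 6.35 at day 3. At day 6 the DMSO arrays read 5.59, 6.05 and 5.08 and the EED226 arrays 5.24, 5.30 and 5.36, within the range of DMSO. The difference was 0.71 ± 0.16 at day 2 (adjusted p = 0.00441), 0.61 at day 3 (adjusted p = 0.00621) and -0.27 at day 6 (adjusted p = 0.166). Tested directly, it fell by 0.88 ± 0.23 between days 3 and 6 (adjusted p = 0.00512). Without EED226 day 2 replicate 2 the day 2 difference was 0.56 (adjusted p = 0.0556), and without DMSO day 6 replicate 3 the day 6 difference was -0.52 (adjusted p = 0.00564), but without DMSO day 6 replicate 2 it was -0.04 (adjusted p = 0.853). With the mean of its probe sets the day 3 difference was 0.22 (adjusted p = 0.0808).

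TBX15, a T-box factor of skeletal and skeletal muscle development, was the 1 dim factor that rose with the probe sets and fit used here. Its DMSO level was 3.83 ± 0.14 (SD, n = 3) at day 3, and at day 6 the DMSO arrays read 3.66, 4.15 and 3.78. EED226 arrays read 4.04, 4.09 and 4.13 at day 3 and 4.74, 5.12 and 5.04 at day 6. All 3 lay above the DMSO arrays of the same day at both times, narrowly so at day 3. The difference was -0.17 at day 1, -0.01 at day 2, 0.26 at day 3 (adjusted p = 0.226) and 1.11 ± 0.14 at day 6, 2.15-fold (adjusted p = 1.11e-07). The step from day 3 to day 6 was 0.85 ± 0.20 (adjusted p = 0.00168). Of the other T-box factors, TBX20 differed by -0.15 and TBX5 by 0.09 at day 6, which did not pass, and TBX2 and TBX3 fell.

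The 6 rises at day 6 were made while a measure of RNA integrity also moved. The log2 difference between the 3′ and 5′ probe sets of ACTB was 2.79 to 3.33 on the 0 h and DMSO arrays, 3.26 to 3.74 with EED226 at day 3 (3.05 to 3.16 with DMSO) and 3.50 to 4.14 at day 6 (2.87 to 3.29 with DMSO). At day 1 it was 3.01 to 3.19 with EED226 and 3.07 to 3.24 with DMSO, which overlapped. At day 2 it was 3.02 to 3.49 with EED226 and 3.04 to 3.25 with DMSO, so the highest EED226 array lay above the DMSO range. Its part in the differences of any day was not tested.

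With the probe sets and fit used above, none of the 41 dim factors other than TBX15 passed as higher at any time. In alternative runs SOX2 passed as higher at day 6 with the mean of all probe sets of a gene. With array weights TBX20 passed as higher at day 2. In the main run the EED226 minus DMSO differences of the 41 lay between -0.26 and 0.34 at day 1, -0.47 and 0.26 at day 2, -0.28 and 0.27 at day 3, and -0.49 and 0.09 at day 6. Among all 42, 3 at day 2 and 2 at day 3 had an unadjusted p under 0.05. The highest of these day 6 values was that of TBX5, a factor of heart and forelimb. SOX2, a factor of pluripotent and neural progenitor cells, differed by 0.04, GATA3, which acts in T cells, by -0.03, RUNX2, the factor of bone formation, by -0.20, HAND1 of the heart by -0.08 and TWIST1 of the mesoderm by -0.02. GATA2, a factor of blood progenitors and the brightest of the dim group, differed by -0.03 ± 0.14. FOXA2 of the endoderm differed by -0.17 ± 0.11 and FOXD1 of the kidney stroma by -0.24 ± 0.21; neither passed. At these signal levels a difference in transcript that stays under the array's background cannot be seen.

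**Figure D4:**
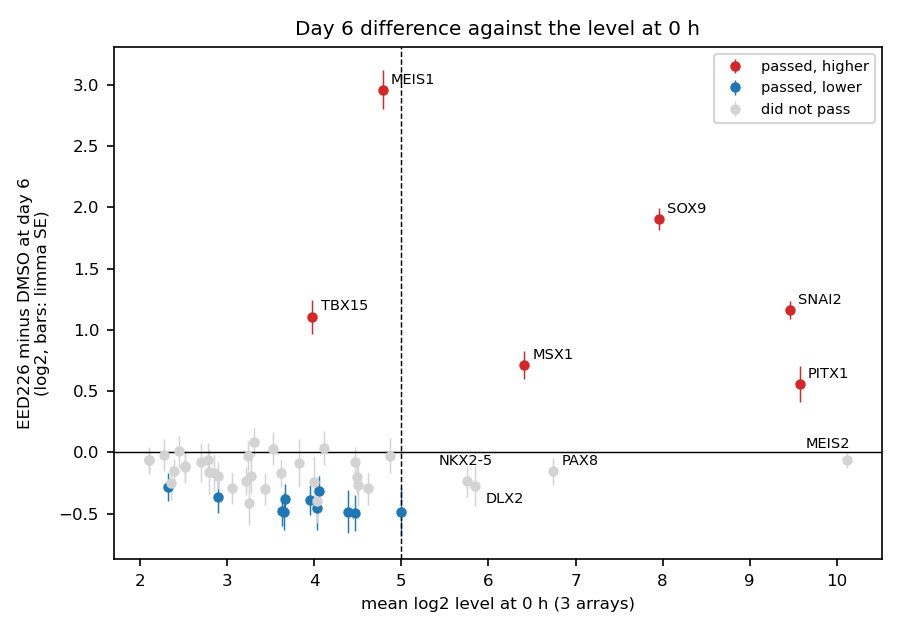
EED226 minus DMSO at day 6 (log2, bars are limma SE) against the mean log2 level at 0 h for the 52 factors, with the dashed line at a level of 5; red points rose, blue points fell and grey points did not pass. SOX9, SNAI2, MSX1 and PITX1, above 5 at 0 h, and MEIS1 and TBX15, below it, were higher than DMSO at day 6. The falls are all smaller than 0.5 in size.

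The falls at day 6 were small. The 11 factors that passed were SOX1, SOX10, PAX2, PAX6, PAX7, GATA6, TBX2, TBX3, SIX2, OTX2 and EN2, with differences from -0.28 to -0.49. TBX2, a T-box repressor of heart and limb patterning, read 4.58, 4.56 and 5.00 with DMSO and 4.30, 4.25 and 4.11 with EED226, a fall of 0.49 ± 0.14 (adjusted p = 0.00553). PAX6, the eye factor, read 3.69, 3.70 and 4.24 against 3.69, 3.11 and 3.39. These groups were apart, narrowly so for PAX6, and DMSO replicate 3 was the highest array in both.

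PAX7, the factor of muscle stem cells, read 3.81, 3.70 and 3.89 with DMSO and 3.33, 3.16 and 3.47 with EED226, a fall of 0.48 ± 0.12 (adjusted p = 0.00183). It was the 1 fall that was kept with each array left out. SIX2 of nephron progenitors differed by -0.48, TBX3 of limb and mammary development by -0.39 and PAX2 of the kidney by -0.38, each without overlap. GATA6 of the endoderm (-0.45) and SOX10 of the neural crest (-0.49) overlapped DMSO. Without DMSO day 6 replicate 3, 4 factors fell, of which 1, PAX7, was among the 11; without EED226 day 6 replicate 2, 7 fell and 4 were among them. The values without DMSO day 6 replicate 3 were -0.35 for TBX2 (adjusted p = 0.0599), -0.30 for PAX6 (0.102), -0.30 for TBX3 (0.0635), -0.27 for PAX2 (0.12), -0.43 for SIX2 (0.0892), -0.15 for GATA6 (0.481), -0.44 for SOX10 (0.11), -0.29 for SOX1 (0.0882), -0.31 for EN2 (0.0947) and -0.25 for OTX2 (0.125). Without EED226 day 6 replicate 2 that of SOX10 was -0.22 (adjusted p = 0.357). OTX2 lost its call on leaving out any 1 of the 6 arrays (adjusted p = 0.059 to 0.142). The median of all 52 factors at day 6 was -0.17, against -0.11 for all genes, and that of the 42 dim factors was -0.19, against -0.14 for all dim genes.

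At day 6, 23.7% of all genes rose and 27.3% fell. The families hold few genes each, and only the fall of PAX7 was kept without DMSO day 6 replicate 3. By family, 1 of 7 SRY-box factors rose and 2 fell. Of 6 paired-box factors 0 rose and 3 fell, and of 4 GATA factors 0 rose and 1 fell. Of 5 T-box factors 1 rose and 2 fell. Of 14 other homeobox factors 3 rose and 3 fell, and of 6 helix-loop-helix, SNAI and RUNX factors 1 rose. None of the 4 NK homeobox and 6 forkhead factors passed, with differences of -0.24 to -0.06 and of -0.24 to 0.01. NKX2-5, the heart factor and the brightest NK member, differed by -0.24 ± 0.13.

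A signal above 5 did not by itself go with a rise. MEIS2, the paralogue of MEIS1 and the brightest factor, lay between 9.87 and 10.19 on all 33 arrays. It differed by -0.06 at day 6. At day 3 it read 10.16, 10.16 and 10.05 with DMSO and 10.01, 9.94 and 9.87 with EED226, which did not overlap. That fall of 0.18 ± 0.06 (adjusted p = 0.0279) ended on omitting 1 array, namely DMSO day 3 replicate 1 (-0.17, adjusted p = 0.103), its replicate 2 (-0.17, 0.105), EED226 day 3 replicate 2 (-0.19, 0.0624) or its replicate 3 (-0.15, 0.148). PAX8, the thyroid and kidney factor, read 6.67, 6.61 and 7.06 with DMSO at day 6 and 6.58, 6.71 and 6.59 with EED226, which overlapped, a difference of -0.15 ± 0.11.

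Second probe sets gave a further reading of the same arrays. The 52 factors had 119 probe sets, 67 of them not used above. In a limma fit over 54613 probe sets, 10 of the 119 rose and 20 fell at day 6, where 20.2% of all probe sets rose and 20.6% fell; among the 67 not used 4 rose and 11 fell. The other MEIS1 probe set rose by 1.26, 1.21 and 2.04 at days 2, 3 and 6, that of SOX9 by 1.49, 1.56 and 1.69, and that of PITX1 by 0.45, 0.62 and 0.49, all past the test. The other MSX1 probe set, dim at 3.96, differed by 0.11 at day 6 and did not pass. In that fit the MSX1 probe set used here did not pass at days 2 and 3 (adjusted p = 0.0615 and 0.0661). DLX2's other probe set, at 3.43, did not rise at days 2 and 3 (0.00 and -0.17) and fell by 0.35 at day 6. One SOX2 probe set that was not used, named after its values were seen, was very dim at 2.38 and rose by 0.65, 0.63 and 0.71 at days 2, 3 and 6 (adjusted p = 0.0189, 0.00883 and 0.000969), unlike the other 3 of that gene. Of the 52 factors, 20 were measured by probe sets that can match several transcripts.

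Relatives of these factors from the same families, 84 measured of 92 listed, gave 0 calls at day 1 and 3 rises at day 2 (3.57%, against 6.76% of all genes). At day 3 they gave 3 rises (3.57%, against 11.7%) and 4 falls (4.76%, against 11.2%). At day 6, 10 rose (11.9%, against 23.7%) and 18 fell (21.4%, against 27.3%), with a median of -0.17. PBX3, a TALE homeobox partner of MEIS and HOX proteins, read 7.05, 7.16 and 6.41 with DMSO at day 6 and 9.34, 9.65 and 9.40 with EED226. The groups were far apart, and the difference was 0.61 at day 2, 0.94 at day 3 and 2.59 ± 0.13 at day 6 (adjusted p = 1.45e-15). SIX4, a homeobox factor of muscle and sensory placodes, rose by 1.47 ± 0.12 and SOX5, which acts with SOX9 in cartilage, by 1.03 ± 0.32 (adjusted p = 0.00864). The largest falls were those of EOMES (-0.80), EMX1 (-0.59) and TBX4 (-0.58). Without DMSO day 6 replicate 3 the EMX1 difference was -0.24 (adjusted p = 0.15).

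Products of the lineages that such factors specify, 61 measured of 68 listed, gave 0 calls at day 1 and 3 rises at day 2 (4.92%, against 6.76% of all genes). At day 3 there were 3 rises and 3 falls (4.92% each, against 11.7% and 11.2%), and at day 6, 6 rises (9.84%, against 23.7%) and 19 falls (31.1%, against 27.3%). SPP1, the bone matrix protein osteopontin that macrophages also make, read 5.39, 4.96 and 4.42 with DMSO at day 6 and 9.84, 9.70 and 9.44 with EED226. It rose by 1.87, 2.70 and 4.74 ± 0.26 at days 2, 3 and 6. MAP2, a microtubule protein of neurons, went from 3.24, 3.43 and 2.83 to 6.05, 6.41 and 6.20 at day 6, a rise of 3.05 ± 0.19. AFP rose by 0.45, which did not pass without EED226 day 6 replicate 3 (0.40, adjusted p = 0.0569). TUBB3, a tubulin of neurons, fell by 1.65, WT1 of the kidney by 1.52 and COL9A1, a cartilage collagen, by 0.88. The COL9A1 difference was -0.41 without DMSO day 6 replicate 3 (adjusted p = 0.0319), and it did not pass in a fit of the 6 arrays only (adjusted p = 0.0979).

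Of the PRC2 genes, 13 measured, 2 rose at day 1 (0.834% of all genes rose) and 0 fell. These were JARID2 (0.41, adjusted p = 0.0376) and EPOP (0.38, adjusted p = 0.0251), accessory subunits named after their values were seen and not run with arrays left out. Both days 2 and 3 gave 2 rises (6.76% and 11.7% of all genes), and 3 fell at day 3. At day 6, 3 rose and 8 fell (23.7% and 27.3% of all genes). EZH2 fell by 0.78 ± 0.08, SUZ12 by 0.42 ± 0.07 and EED by 0.27 ± 0.05, while EZH1 rose by 0.85 ± 0.08; for EED the mean of its probe sets gave a rise of 0.25. At day 1 none of these 4 passed.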

How the data were processed

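The deposited table holds 1 column of log2 expression values for each of the 33 arrays, deposited by the authors. Per the submitters' processing notes they used RMA, which subtracts background, scales arrays by quantiles and sums up each probe set; its version is not given in the sources used here. Total RNA was labelled with a 3′ kit, so values depend on RNA integrity. Of 54675 probe sets, 62 were controls, 41091 had 1 gene symbol in the platform annotation, 1801 had several and 11721 were unnamed here; each of 19775 genes took its brightest probe set over all arrays, and dim genes were kept.

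Groups follow the sample titles. EED226 was compared with DMSO at 5 times, between times as a difference of differences, and DMSO at day 6 with 0 h, using limma 3.58.1 in R 4.3.3 (lmFit and eBayes, 11 group means, 22 residual degrees of freedom), two-sided, with Benjamini-Hochberg adjustment over all genes and a threshold of 0.05. Levels in the text are log2 values of single arrays or group means, and log2 differences carry their limma SE. The number of arrays limits the precision. The design text calls the replicates biological, but the labels do not name separate cultures. The p-values thus rest on the spread between these samples, pooled over all 11 groups and not taken from the arrays compared alone. The procedure was tested on simulated data.

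The members and lists were chosen with earlier results of these data known. Factors were named by a rule: at day 6 the 10 largest rises and 6 largest falls that passed without overlap of the groups, at days 1 to 3 the 4 largest and 3 largest, the largest differences between times, the smallest p and highest level of each family, and those nearest the split at 5; in the other lists the 3 largest rises and falls at day 6. Other factors that passed are named as well. Same-numbered EED226 and DMSO arrays deviated together at 8 h, day 1 and day 2 (correlations of 0.199 to 0.318, 0.110 to 0.358 and 0.151 to 0.169), not at day 3 (-0.00879 to 0.233) or day 6 (0.0464 to 0.126), so the replicate number was used as a block in an alternative. That block was shared by all 11 groups, so no pairing within a time was fitted. Other alternatives changed the probe set rule, scaling, dim-gene filter, arrays fitted, array weights and threshold. Promoter windows come from RefSeq tables for GRCh38.p14, since the arrays have no build. The text of the labels also names the compound EI1; no sample labelled with it was analysed here.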

Additional observations from a re-analysis of the deposited data

Results flagged for a closer look

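The difference between EED226 and DMSO itself changed with time for several factors, by limma's test of the difference of differences with adjustment over all genes. From day 1 to day 6 it changed for 7 of the 52. It moved up for 4, where 18.6% of all genes moved up: by 2.22 for MEIS1 (adjusted p = 6.72e-09), 1.28 for TBX15 (5.90e-06), 1.07 for SOX9 (9.95e-08) and 0.79 for SNAI2 (2.74e-07), all on the log2 scale. It moved down for 3, where 15.8% of all genes moved down: by -0.62 for TBX2 (adjusted p = 0.0177), -0.61 for DLX2 (0.0429) and -0.59 for PAX2 (0.0119). Without DMSO day 6 replicate 3 the TBX2 value was -0.48 (adjusted p = 0.0706). The DLX2 call was lost in 11 of 12 omissions of 1 array, with adjusted p up to 0.175 without DMSO day 6 replicate 2.

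From day 3 to day 6 the difference changed for 3 factors. It grew by 1.02 for MEIS1 and by 0.85 for TBX15, where 14.2% of all genes grew, and fell by 0.88 for DLX2, where 10.7% of all genes fell. These 3 calls were kept with each of the arrays compared left out.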

How the results depend on the processing

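Choosing probe sets by the 18 arrays without EED226 changed no call of a factor, and the rises at days 3 and 6 stayed within 1.5 times their count in every alternative run. Leaving out 1 array gave 1 to 3 rises at day 1, 3 to 6 at day 2, 0 to 1 falls at days 2 and 3, 4 to 11 falls at day 6, 3 to 5 factors whose difference changed from day 3 to day 6, and 6 to 8 from day 1. The count of falls was the least stable. At day 6 it was 0 with only genes above the median level, since that filter removed these factors, 7 with only the 6 arrays compared and with array weights, 4 at an adjusted p under 0.01, and 25 with each array centred on its gene median, an alternative chosen after seeing the data. At day 3 it was 0 with array medians centred, with only the 6 arrays and at an adjusted p under 0.01, 2 with array weights and 6 with gene medians centred. At day 2 it was 1 with trended robust eBayes, array weights and gene medians centred. Gene-median centring also gave 11 factors whose difference changed from day 1 to day 6; it moved the median of all genes from -0.11 to -0.21 at day 6 and from -0.02 to -0.15 at day 3. Over all genes it gave 1073 higher and 1180 lower at day 2, against 1337 and 529, 1648 and 4460 at day 3, against 2321 and 2215, and 4002 and 8271 at day 6, against 4686 and 5395; renewed quantile normalization gave 1400 and 892 at day 2. The cause of these shifts was not tested. With the replicate number as a block, 3, 6, 6 and 6 factors rose at days 1, 2, 3 and 6 and 12 fell at day 6, with PITX1 gained at day 2 and PAX3 at day 6 (-0.29, adjusted p = 0.0473), and 8 and 4 changed from day 1 and day 3 to day 6, with EN2 and PAX8 gained; it changed no other call of a factor. With the mean of all probe sets of a gene EED rose by 0.25 (adjusted p = 0.0467). Dim probe sets limit what can be seen of the 42 factors below 5, of which 31 had a DMSO mean below the lowest array median.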

Other observations

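Other members of the families moved at day 6 and were chosen after their values were seen. PBX2, a further TALE partner of MEIS proteins, rose by 0.85, SOX6, which acts with SOX5 and SOX9 in cartilage, by 0.81, and SOX4, a SRY-box factor of lymphoid cells, by 0.54, each past limma's test. Among the 84 measured relatives, 10 rose and 18 fell at day 6, where 23.7% of all genes rose and 27.3% fell. PBX2, SOX6 and SOX4 were picked as rises and were not run with arrays left out.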
